A study of Mus musculus with 12 samples.

Results

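The GIMAP genes (GTPases of immunity-associated proteins) encode small GTP-binding proteins of lymphocytes, and 8 members of the family were found among the 11022 genes of the expression table. They were Gimap1, Gimap3, Gimap4, Gimap5, Gimap6, Gimap7, Gimap8 and Gimap9, taken by gene symbol and not by their values. All 8 had passed the authors' filter on low counts, which had been applied before the table was made. Paired-end RNA sequencing had read the mRNA of 12 cultures of cytotoxic T lymphocytes (CTL) from LCMV-P14 TCR transgenic mice aged 9 to 13 weeks. These mice carry a transgenic T cell receptor (TCR) for the gp33-41 peptide of a viral glycoprotein, so their CD8+ T cells share 1 antigen specificity. Lymph node or spleen cells of 3 mice were primed for 48 h with peptide at 100 ng per mL, interleukin-2 (IL-2) at 20 ng per mL and interleukin-12 at 2 ng per mL, and grown for 5 further days in IL-2. On day 7 the CTL rested for 1 h and then formed 4 groups of 3 cultures. Unstimulated CTL received IL-2 alone, and TCR cultures received gp33-41 at 100 ng per mL for 4 h in the same IL-2 medium. PI3Kdi cultures received peptide together with IC87114 at 10 µM, which blocks the PI3K p110δ catalytic subunit, and MEKi cultures received peptide together with PD184252 at 2 µM, an inhibitor of the kinases MEK1/2 that activate ERK1/2. No group received an inhibitor without peptide, so inhibitor effects are known only in stimulated CTL.

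GIMAP proteins share an AIG1 domain that binds guanine nucleotides, and several of them sit on membranes of mitochondria, lysosomes, the endoplasmic reticulum or vesicles. Their genes lie side by side as a cluster, are used mainly in lymphocytes, and are best known for their part in the survival and development of T and B cells. GIMAP5 is the member whose loss has been studied most: without it, rodents lose peripheral T cells. In T cells, antigen receptor signals pass through PI3K to the kinase AKT, which keeps FOXO transcription factors out of the nucleus, and through MEK to ERK.

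The cultures carried the CTL markers that their labels lead one to look for. All 8 listed CTL markers were in the table, and Cd8a lay between 213 and 430 FPKM over the 12 cultures. FPKM are fragment counts divided by exon length and library size, which makes levels of different genes comparable per length. None of the listed markers of B cells (0 of 4), monocytes and macrophages (0 of 4) or erythroid cells (0 of 2) was in the table. Zbtb46, 1 of 4 dendritic cell markers and the only one in the table, was at 0.02 to 0.03 FPKM in unstimulated CTL and at 3.27 to 3.63 FPKM in TCR cultures. Klrb1c, 1 of 2 markers of natural killer cells and the only one in the table, was at 4.58 to 6.23 FPKM in unstimulated, 1.63 to 1.88 in TCR, 2.03 to 2.43 in PI3Kdi and 1.31 to 1.93 FPKM in MEKi cultures, so that it was lower after stimulation. Both CD4 T cell markers were in the table, and Cd4 lay between 0.44 and 0.99 FPKM in unstimulated and between 2.54 and 2.87 FPKM in TCR cultures, while the sum of both lay between 7.54 and 9.31 FPKM in unstimulated and between 7.59 and 8.26 FPKM in TCR cultures. Pecam1, 1 of 3 endothelial markers and the only one in the table, was at 10.91 to 13.17 FPKM in TCR, 6.14 to 7.56 in PI3Kdi and 13.89 to 16.32 FPKM in MEKi cultures. The part of these markers in the results was not tested. Estimated effective depth per culture ran from 7860000 to 13260000 reads, which gave every Gimap gene at least 246 approximate reads in every culture and Gimap4 up to 6794. Counting error was thus at most 6.4% of a value, and the spread of the 3 cultures of a group (coefficient of variation) ran from 1.1% to 14% with a median of 6.0%.

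The 8 genes lie on mouse chromosome 6 (GRCm38) within 123.7 kb, between positions 48647186 and 48770851, and no other gene of the table lies among them. In chromosomal order they are Gimap8 (Entrez gene 243374), Gimap9 (317758), Gimap4 (107526), Gimap6 (231931), Gimap7 (231932), Gimap1 (16205), Gimap5 (317757) and Gimap3 (83408). Gimap6 and Gimap3 are on the minus strand and the others on the plus strand. Exons of Gimap1 overlap those of the antisense gene Gimap1os over 1107 of 3073 bases in the GENCODE annotation, and 28.3% of the 100-base stretches of Gimap1 transcripts also occur in Gimap1os transcripts. Whether the counting used strand is not stated in the sources used here, so it is not known whether the Gimap1 values include reads of Gimap1os. Gimap3 and Gimap5 are related in sequence but share only 41 such stretches, 1.7% of those of Gimap3. For Gimap4, Gimap6, Gimap7, Gimap8 and Gimap9 the share was 0.0%.

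In unstimulated CTL the family was abundant: the 8 genes together reached 809 ± 40.4 FPKM (SD, n = 3). Gimap4, a protein linked to T cell death during differentiation, led with 261 ± 18.8 FPKM, above 97.8% of the genes of the table. Gimap3, found in mice on the endoplasmic reticulum and mitochondria, followed with 162 ± 12.3 FPKM and Gimap6, a partner of the ATG8 proteins of autophagy, with 114 ± 4.29 FPKM. Below them came Gimap7 at 79.6 ± 7.93, Gimap1 at 66.9 ± 2.20, Gimap9 at 49.1 ± 3.31, Gimap5 at 46.2 ± 1.72 and Gimap8, which encodes the largest protein of the family, at 30.7 ± 0.635 FPKM. Only Gimap9 and Gimap5 had overlapping values among neighbours in this order.

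The first comparison asked how the family responds when CTL meet their antigen again. TCR stimulation lowered Gimap7, Gimap9, Gimap4, Gimap3 and Gimap8, whereas Gimap1 and Gimap6 did not pass the test and Gimap5 stood at 126% of its unstimulated mean on the deposited scaling. The changes are differences of log2(FPKM + 0.1) tested with limma over all 11022 genes, where the added 0.1 hardly moves genes at these levels. A gene was called where its Benjamini-Hochberg adjusted p was under 0.05 and its change over 2-fold. Gimap7, Gimap9 and Gimap4 were called lower, 3 of 8 members, against 20.0% of all genes called and 11.1% called lower. At any fold, 5 members had an adjusted p under 0.05 and were lower and 1 was higher, while 68.6% of all genes passed that looser rule, 34.9% lower and 33.6% higher. The median change of the 8 genes was -0.82 beside -0.01 for all genes. The p-values measure the spread between cultures of 3 mice.

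Gimap7, whose protein hydrolyses GTP as a dimer, changed most. It measured 79.1, 71.9 and 87.7 FPKM in the 3 unstimulated cultures and 22.3, 21.2 and 19.8 FPKM in the 3 TCR cultures. Every TCR culture lay far below every unstimulated one, and the TCR mean was 26.5% of the unstimulated mean. The log2 fold change was -1.91 (SE 0.08, adjusted p = 3.53e-11, limma), and 5.57% of all genes had a larger change in either direction. In bulk cultures, fewer cells that use a gene and less of its RNA per cell cannot be told apart, here and below.

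Gimap9 and Gimap4, which are adjacent genes, fell to 44.6% and 46.5% of their unstimulated means. Gimap9 measured 49.25, 45.8 and 52.4 FPKM before and 19.8, 22.9 and 23.1 FPKM after stimulation. Gimap4 measured 262, 241 and 279 FPKM before and 116, 116 and 131 FPKM after. In both genes the groups were well apart. The log2 fold changes were -1.16 for Gimap9 (SE 0.10, adjusted p = 7.62e-08) and -1.10 for Gimap4 (SE 0.06, adjusted p = 8.64e-10).

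Gimap3 and Gimap8, at opposite ends of the cluster, fell by less than 2-fold on the deposited scaling, whereas both were called on the TPM scale (-1.32 and -1.15) and Gimap3 also under quantile normalisation (-1.11). Gimap3 measured 172, 148 and 164 FPKM in unstimulated CTL and 91.1, 80.8 and 85.9 FPKM in TCR cultures, a log2 fold change of -0.91 (SE 0.07, adjusted p = 2.01e-08). Gimap8 went from 30.1 to 31.4 FPKM before to 16.95 to 19.9 FPKM after stimulation, a log2 fold change of -0.74 (SE 0.08, adjusted p = 5.85e-07). Neither gene overlapped between the groups.

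On the deposited scaling the remaining members did not share this fall. Gimap6 measured 109, 115 and 118 FPKM in unstimulated and 109, 125 and 105 FPKM in TCR cultures, so that the groups overlapped fully (log2 fold change -0.02, 95% interval -0.15 to 0.12, adjusted p = 0.825). Gimap1, which mature T and B cells need to persist, ranged from 65.2 to 69.35 FPKM before and from 61.45 to 73.6 FPKM after (-0.02, 95% interval -0.19 to 0.14, adjusted p = 0.791). Gimap5 measured 47.6, 46.6 and 44.3 FPKM in unstimulated and 57.9, 56.9 and 59.8 FPKM in TCR cultures, with no overlap. In all, 6 of 8 members did not overlap between the groups, beside 71.2% of all genes.

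The direction given for Gimap5, a log2 fold change of 0.33 (SE 0.05, adjusted p = 4.81e-05), flipped to -0.08 (adjusted p = 0.261) when every culture was set to 1 shared total of FPKM (the TPM scale), and its adjusted p ranged from 4.45e-05 to 0.261 over the alternatives run. On that scale the median of all genes itself moved to -0.41, and 7 members were lower with an adjusted p under 0.05, Gimap1 at -0.44 and Gimap6 at -0.43 included, beside 60.9% of all genes. Under quantile normalisation, with a median of all genes of -0.05, 6 members were lower, Gimap6 included (-0.18, adjusted p = 0.0199), beside 37.0% of all genes, and Gimap5 was higher (0.22, adjusted p = 0.00234). Relative to the median of all genes on the TPM scale, Gimap5 stood at 0.33, Gimap6 at -0.02, Gimap1 at -0.03 and Gimap7 at -1.91. Relative to that under quantile normalisation they stood at 0.27, -0.13, -0.09 and -1.93. Of all genes, 978 were called higher and 1224 lower on the deposited scaling, against 647 and 2276 on the TPM scale. Ratios of genes within a culture are not touched by the TPM scale, though quantile normalisation can change them. In the deposited FPKM the ratio of Gimap7 to Gimap5 was 1.73 ± 0.227 before and 0.363 ± 0.0284 after stimulation. That of Gimap4 to Gimap6 went from 2.29 ± 0.168 to 1.08 ± 0.156.

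**Figure D1:**
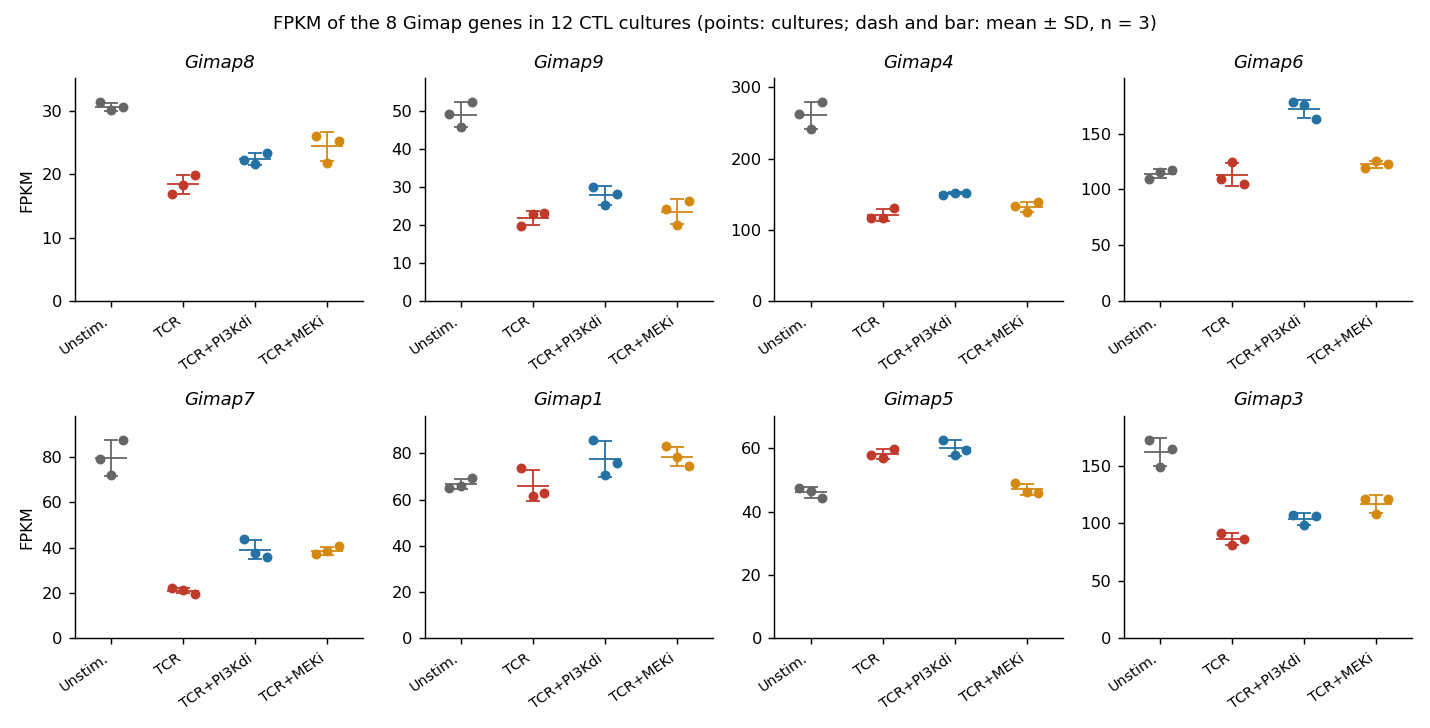
FPKM (linear axis from 0, own scale per gene) of each Gimap gene in chromosomal order, with 1 point per culture and the mean ± SD of 3 cultures per group. Gimap7 stood at 71.9 to 87.7 FPKM in unstimulated and 19.8 to 22.3 FPKM in TCR cultures, and Gimap6 was highest in the PI3Kdi cultures, at 163 to 178 FPKM.

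These unequal changes altered the make-up of the family. Its summed FPKM went from 809 ± 40.4 in unstimulated to 506 ± 2.66 in TCR cultures. Gimap7 held 9.82% ± 0.507 of the sum before and 4.17% ± 0.252 after, and Gimap4 32.2% ± 0.741 before and 24.0% ± 1.59 after. Gimap6 held 14.1% ± 0.852 before and 22.3% ± 2.15 after, and Gimap5 5.72% ± 0.437 and 11.5% ± 0.247. In the order of levels, Gimap7 went from rank 4 to rank 7, and the 3 lowest genes (Gimap9, Gimap7 and Gimap8) each overlapped with the next in TCR cultures. Gimap4 and Gimap6 at the top also overlapped there.

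**Figure D2:**
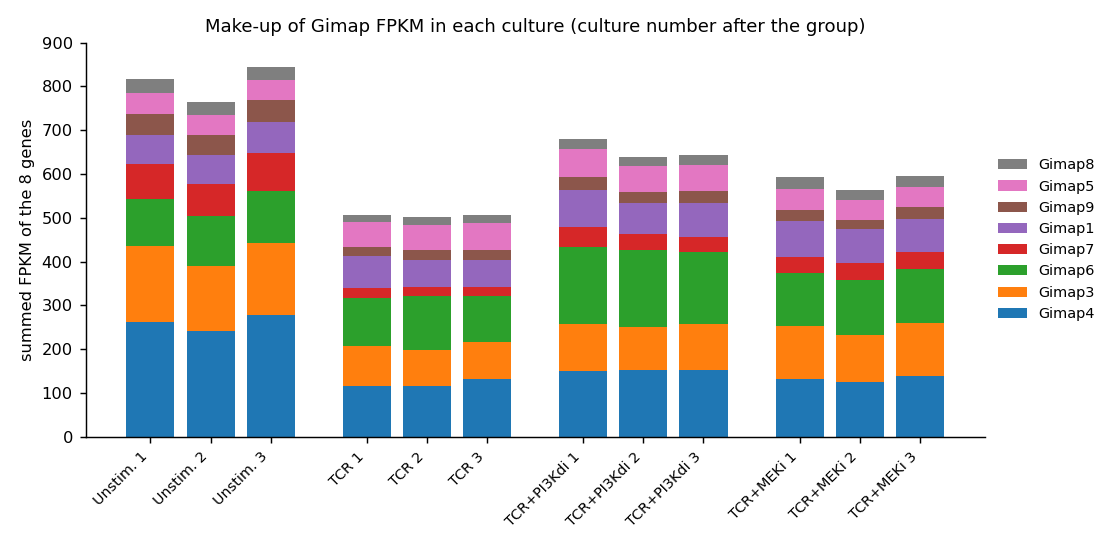
Stacked bars of FPKM of the 8 Gimap genes in each of the 12 cultures, on a linear axis from 0. The sum was highest in unstimulated cultures (765 to 845 FPKM), lowest in TCR cultures (502 to 507 FPKM) and between them with PI3Kdi (639 to 679 FPKM) or MEKi (562.5 to 595 FPKM).

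The promoters of members that fell and of members that did not are given for Gimap7 and Gimap3, which fell, and for Gimap5 and Gimap6, which did not on the deposited scaling. The stretches hold 250 bases before and 50 bases from the annotated start, read 5′ to 3′ on the strand of the gene, from RefSeq on GRCm38.p6, where all 8 members matched (9 promoters, since Gimap8 has a pair of starts). Capitals mark matches on either strand to 6 short motifs: TGTTTAC for FOXO, CCGGAAG for ETS, TGTGGTT for RUNX, GGAAAA for NFAT, TGANTCA for AP-1 and TGGGAA for RBPJ. No match overlapped another in these 4 promoters. Gimap7 is at chr6:48718371-48718670 on the plus strand, Gimap3 at chr6:48770802-48771101 on the minus strand, Gimap5 at chr6:48745947-48746246 on the plus strand and Gimap6 at chr6:48708195-48708494 on the minus strand.
Gimap7: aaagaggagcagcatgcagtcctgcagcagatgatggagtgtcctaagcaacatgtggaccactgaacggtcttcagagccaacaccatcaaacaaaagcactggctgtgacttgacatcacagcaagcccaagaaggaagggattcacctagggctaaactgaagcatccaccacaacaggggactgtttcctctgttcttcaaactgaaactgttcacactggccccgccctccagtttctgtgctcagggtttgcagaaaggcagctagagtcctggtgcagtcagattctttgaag
Gimap3: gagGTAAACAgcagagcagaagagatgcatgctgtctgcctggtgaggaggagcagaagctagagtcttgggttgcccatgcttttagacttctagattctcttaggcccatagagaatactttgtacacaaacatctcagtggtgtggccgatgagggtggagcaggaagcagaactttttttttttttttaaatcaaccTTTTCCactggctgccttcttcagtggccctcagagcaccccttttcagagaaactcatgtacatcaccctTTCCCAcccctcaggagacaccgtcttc
Gimap5: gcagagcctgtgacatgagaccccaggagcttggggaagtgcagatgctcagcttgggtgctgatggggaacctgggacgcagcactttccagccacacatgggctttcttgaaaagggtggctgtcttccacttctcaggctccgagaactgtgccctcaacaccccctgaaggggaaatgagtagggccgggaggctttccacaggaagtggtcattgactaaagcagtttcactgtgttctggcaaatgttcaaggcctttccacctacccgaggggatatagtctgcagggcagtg
Gimap6: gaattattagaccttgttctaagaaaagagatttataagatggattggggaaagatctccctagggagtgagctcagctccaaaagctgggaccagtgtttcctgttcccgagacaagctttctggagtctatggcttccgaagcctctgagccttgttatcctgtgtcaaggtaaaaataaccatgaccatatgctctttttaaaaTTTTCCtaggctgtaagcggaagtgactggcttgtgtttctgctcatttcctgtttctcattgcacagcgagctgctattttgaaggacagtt
The FOXO letters, present in 3.6% of 32851 mouse promoters, occurred in 1 member, Gimap3, from base -247 relative to its start. The NFAT letters, present in 23.4% of promoters, occurred in Gimap3 (from base -49), Gimap6 (from base -43) and Gimap1 (from base -82), thus in 1 gene that fell and in 2 that did not pass the test on the deposited scaling. RBPJ letters (25.6% of promoters) occurred in Gimap3 only. ETS (8.9%), RUNX (5.3%) and AP-1 (7.8%) letters were not in these windows of any member. Gimap7, the member with the largest change, held none of the 6 motifs in its window.

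The genes around the cluster were set beside it. Of the 10 genes of the table nearest on each side, 3 of 20 were called lower and 0 higher after TCR stimulation, beside 11.1% of all genes called lower, with a median change of 0.02 (limma, with 6 higher and 6 lower at an unadjusted p under 0.05). AI854703, 13.5 kb from Gimap8, went from 0.750 ± 0.0985 to 0.180 ± 0.0917 FPKM, with a log2 fold change of -1.65 (SE 0.33, adjusted p = 0.000370). Tmem176a, 70.6 kb beyond Gimap3, went from 10.2 ± 2.69 to 4.70 ± 1.57 FPKM, and Gpnmb, 265.7 kb beyond it, from 1.20 ± 0.281 to 0.537 ± 0.261 FPKM. All 3 were expressed far below the Gimap genes. Tmem176b, the nearest neighbour on the Gimap3 side at 63 kb, was lower without reaching 2-fold (-0.99, adjusted p = 0.000204), as was Lrrc61, 76.5 kb from Gimap8 (-0.89, adjusted p = 0.000919). Tmem176a lies within the positions of Tmem176b, so their reads may not be separable. Of all 20 neighbours, 5 were lower and 5 higher at an adjusted p under 0.05, beside 34.9% and 33.6% of all genes. Among the 3 nearest genes on each side, 4 of 6 were lower, Tmem176a and Tmem176b included. Repin1 and Zfp775 on the Gimap8 side did not pass the test. Neighbours inside the cluster did not move alike: Gimap7, with the deepest fall, lies between Gimap6 and Gimap1, neither of which passed the test on the deposited scaling.

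**Figure D3:**
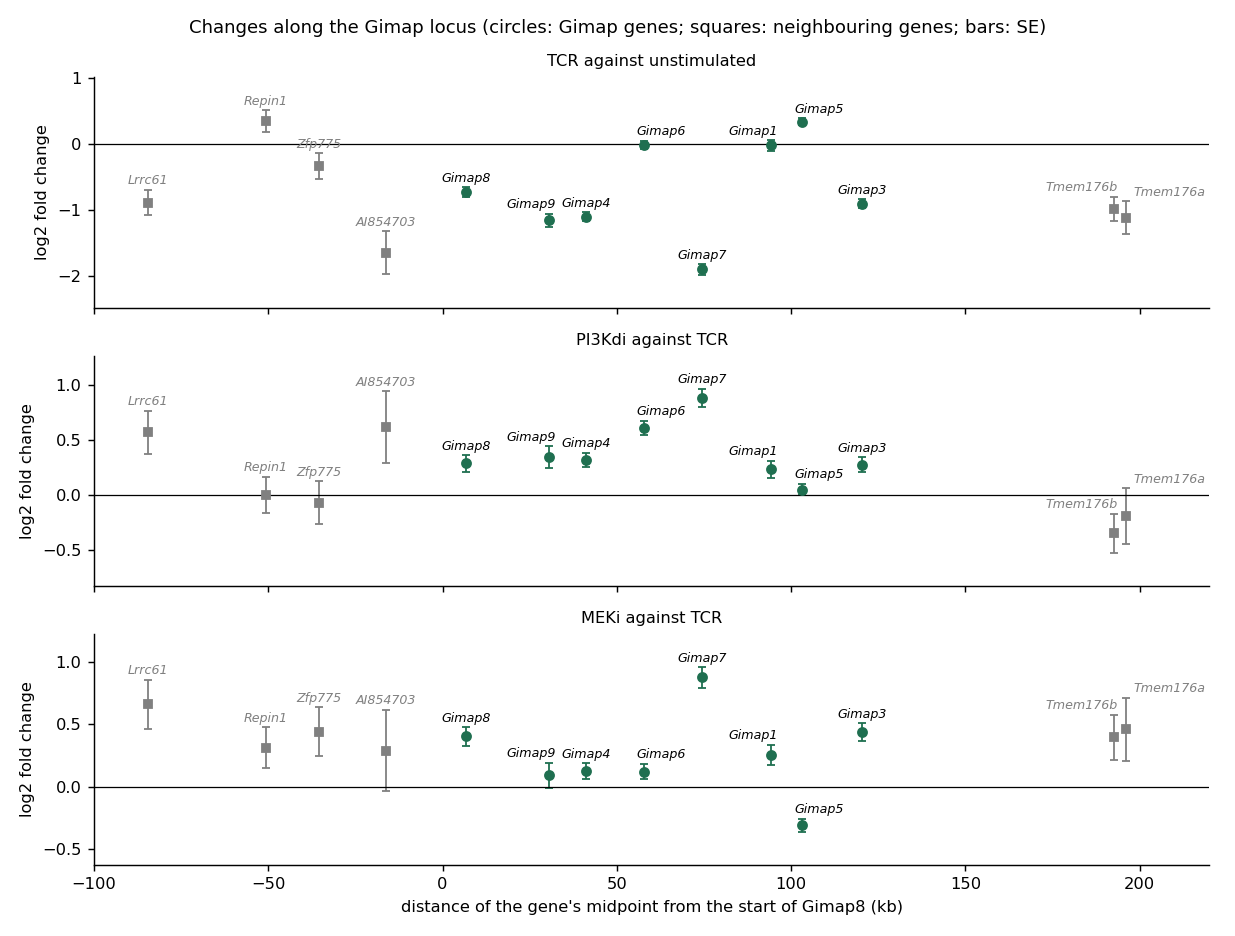
Log2 fold change (SE as bars) against distance in kb from the start of Gimap8 for the 8 Gimap genes (circles) and the 6 nearest neighbours in the table (squares), in 3 comparisons. After TCR stimulation the members ranged from -1.91 (Gimap7) to 0.33 (Gimap5, -0.08 on the TPM scale) within 123.7 kb.

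The second comparison asked which of these mRNAs depend on PI3K p110δ during stimulation. With PI3Kdi, 7 of 8 members were higher than in TCR cultures at an adjusted p under 0.05, with means between 118% and 185% of the TCR mean, and the remaining one, Gimap5, did not pass the test. No change reached 2-fold on the deposited scaling, so limma called 0 of 8 members at that rule, beside 1.88% of all genes, and 7 members were higher at an unadjusted p under 0.05. The count of 7 at any fold stands beside 25.6% of all genes, 12.7% higher and 12.8% lower. The median change of the members was 0.30 beside 0.02 for all genes. On the TPM scale, where the median of all genes was 0.19, all 8 members passed the test as higher, beside 34.6% of all genes, and Gimap7 was called at 2-fold (1.07). The genes called at 2-fold numbered 55 higher and 152 lower on the deposited and 119 and 107 on the TPM scale.

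Gimap7 again changed most. Its values with PI3Kdi were 43.7, 37.6 and 35.9 FPKM, against 22.3, 21.2 and 19.8 FPKM in TCR cultures, without overlap (log2 fold change 0.88, 95% interval 0.71 to 1.06, adjusted p = 4.98e-06). Gimap6 measured 178, 175 and 163 FPKM with PI3Kdi, above every other culture of the series (0.61, 95% interval 0.48 to 0.74, adjusted p = 1.09e-05). It became the most abundant member there, ahead of Gimap4 at 151 ± 1.63 FPKM. Of all genes, 2.72% changed more than Gimap7 and 7.02% more than Gimap6 in this comparison.

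The remaining members moved by smaller steps, if at all. Gimap9 stood at 25.3 to 30.15 FPKM with PI3Kdi (log2 fold change 0.34, adjusted p = 0.0202), Gimap4 at 149 to 152 FPKM (0.32, adjusted p = 0.00208) and Gimap8 at 21.6 to 23.4 FPKM (0.29, adjusted p = 0.0128), each above all TCR cultures. Gimap3 stood at 97.9 to 107 FPKM (0.27, adjusted p = 0.00991), also without overlap, and Gimap1 at 70.8 to 85.9 FPKM, which overlapped the TCR cultures (0.23, adjusted p = 0.0417, range over the alternatives run 0.000217 to 0.152). Gimap5 measured 62.8, 58.0 and 59.5 FPKM and overlapped the TCR cultures (0.05, 95% interval -0.07 to 0.16, adjusted p = 0.556). Without PI3Kdi replicate 3, Gimap1, Gimap8 and Gimap9 missed the threshold and 4 members remained past it, and without TCR replicate 1 or PI3Kdi replicate 1 there were 5. In all, 6 of 8 members did not overlap between the groups, beside 37.6% of all genes.

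The third comparison asked the same of MEK and ERK. With MEKi, 4 of 8 members were higher than in TCR cultures and 1 was lower at an adjusted p under 0.05. At 2-fold limma called 0, beside 3.49% of all genes, or 1 on the TPM scale (Gimap7 at 1.14), and at an unadjusted p under 0.05 4 members were higher and 1 lower. The rule at any fold took 37.1% of all genes, 18.9% higher and 18.2% lower. At 2-fold, 108 genes were called higher and 277 lower on the deposited and 323 and 202 on the TPM scale. The members' median change was 0.19 beside 0.01. The 3 TCR cultures are the same ones as in the PI3Kdi comparison, so the inhibitor effects share their controls.

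Gimap7 measured 37.1, 38.5 and 40.6 FPKM with MEKi, above all TCR cultures (log2 fold change 0.88, 95% interval 0.70 to 1.05, adjusted p = 1.92e-06). Gimap3 measured 121, 108 and 121 FPKM (0.44, SE 0.07, adjusted p = 0.000214) and Gimap8 21.8 to 26.1 FPKM (0.40, SE 0.08, adjusted p = 0.000873), both without overlap. Gimap1 stood at 74.6 to 82.9 FPKM (0.26, adjusted p = 0.0192), just above the highest TCR culture at 73.6. For Gimap1 that result was lost without TCR replicate 2, TCR replicate 3 or MEKi replicate 1, with an adjusted p of up to 0.0784 over the alternatives run.

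Gimap5 moved the other way. It measured 49.15, 46.1 and 45.8 FPKM with MEKi, below every TCR culture and, in 2 of 3 cultures, within the range of unstimulated CTL (log2 fold change -0.31, SE 0.05, adjusted p = 0.000415). On the TPM scale, where the median of all genes was 0.26, its change was -0.05 (adjusted p = 0.543, range over alternatives 0.000378 to 0.543), which is -0.31 relative to that median. Gimap4 at 132 ± 7.03, Gimap6 at 123 ± 3.14 and Gimap9 at 23.5 ± 3.28 FPKM overlapped the TCR cultures and had log2 fold changes of 0.12, 0.12 and 0.09 (adjusted p = 0.143, 0.145 and 0.489), while all 3 passed the test as higher on the TPM scale, beside 50.2% of all genes. Under quantile normalisation, with a median of all genes of 0.02, Gimap4 (0.25, adjusted p = 0.00648) and Gimap6 (0.24, adjusted p = 0.00706) also passed, which made 6 members higher and 1 lower, beside 18.8% and 15.5% of all genes. In all, 5 of 8 members did not overlap, beside 48.8% of all genes.

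**Figure D4:**
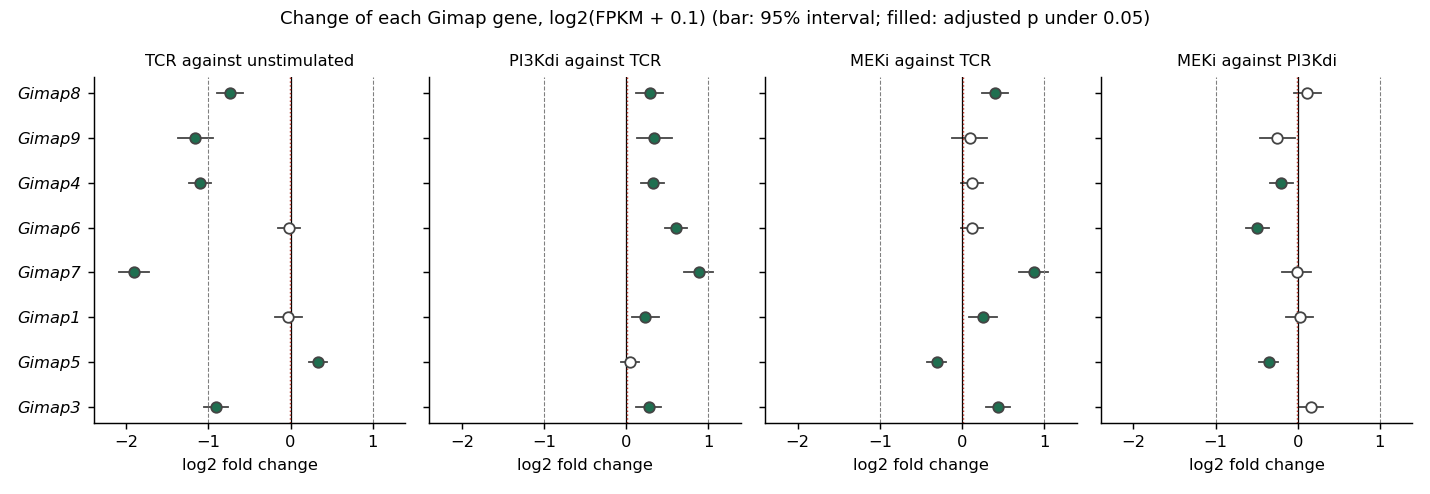
Log2 fold change on log2(FPKM + 0.1) of each Gimap gene in 4 comparisons, with 95% intervals as bars. Filled points had an adjusted p under 0.05 (limma), dashed lines mark 2-fold and the dotted line is the median of all genes. Gimap6 stood at 0.61 with PI3Kdi and 0.12 with MEKi, while Gimap7 stood at 0.88 in both.

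Set directly against each other, the inhibitors differed for Gimap6, Gimap5 and Gimap4. This comparison of MEKi with PI3Kdi cultures equals the difference between both inhibitor effects, since each is taken against the same TCR cultures. At 2-fold limma called 0 of 8 members, beside 3.09% of all genes. At any fold 3 were lower with MEKi and 0 higher, beside 28.9% of all genes (14.4% lower, 14.5% higher), and at an unadjusted p under 0.05 4 were lower and 1 higher. Gimap6 was at 71.2% of its PI3Kdi mean with MEKi (log2 fold change -0.49, SE 0.06, adjusted p = 4.11e-05), and Gimap5 at 78.2% (-0.35, SE 0.05, adjusted p = 0.000147). For both, the adjusted p (limma) stayed under 0.05 in each of the 20 alternatives with values per gene, at most 0.000626 and 0.00310. Those 20 do not include limma treat at 2-fold. Gimap4 was at 87.3% (-0.20, SE 0.06, adjusted p = 0.0315), a result that was lost on the TPM scale, without the intensity trend and without PI3Kdi replicate 2, PI3Kdi replicate 3, MEKi replicate 1 or MEKi replicate 2, with an adjusted p of 0.0112 to 0.207 over the alternatives run. The groups did not overlap for 4 of 8 members, beside 43.6% of all genes.

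No difference between the inhibitors was detected for Gimap7, with a log2 fold change of -0.01 and a 95% interval of -0.19 to 0.17, nor for Gimap1 (0.02, interval -0.14 to 0.19) or Gimap8 (0.12, interval -0.04 to 0.28). Gimap3 was higher with MEKi in all 3 same-numbered pairs (0.17, adjusted p = 0.0872), and Gimap9 lower in all 3 (-0.25, adjusted p = 0.0750). With replicate number as a block, their adjusted p became 0.0126 and 0.0398, within ranges of 0.00982 to 0.262 and 0.0297 to 0.315 over the alternatives run.

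Compared with unstimulated CTL, stimulation under either inhibitor still left Gimap7 at about the same level, 49.1% of the unstimulated mean with PI3Kdi and 48.7% with MEKi. With PI3Kdi Gimap7 was the 1 member called (log2 fold change -1.02, adjusted p = 6.14e-08), beside 14.6% of all genes, 7.43% lower. At any fold 5 members were lower and 3 were higher (30.8% and 31.7% of all genes), namely Gimap6 (0.59), Gimap5 (0.38) and Gimap1 (0.21, and -0.02 on the TPM scale), beside 62.5% of all genes. On the TPM scale 623 genes were called higher and 1272 lower in this comparison, against 789 and 819 on the deposited one. The median of all genes was -0.22 on the TPM scale, relative to which Gimap1 stood at 0.20. The adjusted p of Gimap1 (limma) ranged from 0.0117 to 0.781 over the alternatives run. No member overlapped between these groups, 8 of 8, beside 66.0% of all genes. Leaving out unstimulated replicate 3, PI3Kdi replicate 2 or PI3Kdi replicate 3 took Gimap7 under 2-fold, so that 0 members were called.

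With MEKi, Gimap7 (-1.03, adjusted p = 5.79e-08) and Gimap9 (-1.07, adjusted p = 2.87e-07) were called lower than in unstimulated CTL, 2 of 8, beside 13.4% of all genes, 6.46% lower. Gimap4 lay just short of 2-fold at -0.98, and without single cultures the count ran from 1 to 3. At any fold 5 members were lower and 1, Gimap1, was higher, beside 59.6% of all genes (30.7% lower, 28.9% higher). The change of Gimap1 was 0.23 (adjusted p = 0.0194, limma), and 0.08 on the TPM scale (adjusted p = 0.294). Its adjusted p also missed 0.05 without unstimulated replicate 1, unstimulated replicate 2 or MEKi replicate 1. Gimap5 (0.03, adjusted p = 0.682) and Gimap6 (0.10, adjusted p = 0.165) did not differ detectably from unstimulated CTL. Both turned negative on the TPM scale, to -0.12 and -0.05. The median of all genes was -0.15 on that scale, relative to which Gimap1, Gimap5 and Gimap6 stood at 0.23, 0.03 and 0.11. The groups did not overlap for 7 of 8 members, beside 66.7% of all genes.

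The members were also compared with each other over the 12 cultures, as a description in which the 4 groups set most of the variation. Gimap4 and Gimap9 were the closest pair (Pearson r = 0.981), followed by Gimap3 with Gimap7 (0.957) and Gimap3 with Gimap8 (0.956). The 10 pairs among Gimap3, Gimap4, Gimap7, Gimap8 and Gimap9 had r of 0.866 to 0.981. Gimap5 ran against these 5, with r from -0.745 (Gimap3) to -0.474 (Gimap9). Gimap1 had its highest r with Gimap6 (0.495), which ranked 655 among 10231 genes, and Gimap6 with Gimap5 (0.502), which ranked 1063. For Gimap9, by contrast, Gimap4 ranked 2 among all genes.

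The 5 other genes whose pattern was most like the mean of the family, out of 10224 compared over the 12 cultures, were AW112010 (r = 0.995), Frmd8 (0.990), Dnajc9 (0.983), Tmem140 (0.982) and Samhd1 (0.978). AW112010, an interferon-induced transcript, stood at 361 FPKM in unstimulated, 141 in TCR, 225 in PI3Kdi and 208 in MEKi cultures. Samhd1, a dNTP hydrolase that restricts viruses, stood at 57.4, 19.2, 29.9 and 27.2 FPKM. All 5 had a lower mean in TCR than in unstimulated cultures and a higher one again with either inhibitor. This largely follows from their choice by likeness to the family mean over the same cultures.

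Genes that work with GIMAP proteins were described by lists. Of 12 genes of autophagy and the ATG8 family, to which the known partner of GIMAP6 belongs, 2 were called higher and 0 lower after TCR stimulation. Of all genes, 20.0% were called in that comparison. The median change was 0.16 for the list beside -0.01 for all genes. Sqstm1, an autophagy receptor, rose from 114 ± 2.87 to 276 ± 13.1 FPKM (log2 fold change 1.28) and Gabarapl1 from 29.8 ± 2.14 to 61.3 ± 2.12 FPKM (1.04). Gabarapl2, the partner described for GIMAP6, measured 40.4 ± 4.69 and 39.9 ± 1.30 FPKM. Against TCR, limma called 0 of the 12 with PI3Kdi and 0 with MEKi, beside 1.88% and 3.49% of all genes. At an unadjusted p under 0.05 there were 5 (2 higher, 3 lower) and 7 (3 higher, 4 lower). At an adjusted p under 0.05 and any fold, 1 was higher and 2 lower with PI3Kdi, beside 12.7% and 12.8% of all genes. With MEKi 2 were higher and 3 lower by that rule, beside 18.9% and 18.2% of all genes.

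GIMAP3, GIMAP4 and GIMAP5 have been reported together with BCL2 proteins, which decide on mitochondrial cell death. Of 15 listed genes of the BCL2 family and GSK3, 14 were in the table, and 4 were called higher and 1 lower after TCR stimulation. This stands beside 20.0% of all genes called, and the list's median of 0.27 beside -0.01 for all genes. Bcl2, which protects resting lymphocytes, fell from 48.5 ± 1.78 to 17.9 ± 2.54 FPKM (log2 fold change -1.44). The 4 that rose were Bcl2a1d (4.67) and Bcl2a1b (3.99), near-identical copies between which reads may be split, Bcl2l11 (2.36), which promotes death, and Bcl2l1 (1.58), which prevents it. With PI3Kdi limma called 0 of 14, with 3 higher and 6 lower at an unadjusted p under 0.05. At an adjusted p under 0.05 and any fold, 2 were higher and 6 lower, beside 12.7% and 12.8% of all genes. With MEKi 2 were called lower, Bcl2a1d and Bcl2a1b. At any fold 5 were higher and 3 lower with MEKi (adjusted p under 0.05), beside 18.9% and 18.2% of all genes. The list's median with MEKi was 0.17 beside 0.01 for all genes. Of all genes, 1.88% were called with PI3Kdi and 3.49% with MEKi.

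Genes typical of quiescent T cells were called in both directions. Of 18 listed, 5 were called higher and 1 lower after TCR stimulation, beside 20.0% of all genes called. The list's median was 0.33 beside -0.01 for all genes. Slfn2 rose from 56.0 ± 6.20 to 379 ± 20.5 FPKM (log2 fold change 2.76), Btg1 from 26.0 ± 1.29 to 129 ± 8.51 FPKM (2.31) and Btg2 from 12.2 ± 0.662 to 46.2 ± 3.67 FPKM (1.92). S1pr1, the receptor for exit from lymph nodes, was the 1 called lower and was rare in both groups, at 0.677 ± 0.169 and 0.0533 ± 0.0404 FPKM. With MEKi 5 of the 18 were called higher than in TCR cultures, Il7r, Klf2, Klf3, Satb1 and Tsc22d3, and 0 lower (4 lower at an unadjusted p under 0.05, limma). Of all genes, 3.49% were called in that comparison. At an adjusted p under 0.05 and any fold, 7 of the 18 were higher and 4 lower with MEKi, beside 18.9% and 18.2% of all genes.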

How the data were processed

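The deposited FPKM had been computed by the authors for each culture without pooling. Per the labels and the study's methods, 100-base paired-end reads from stranded mRNA libraries (300 ng of RNA each) were aligned to mm10 with STAR 2.4.2a and counted per RefSeq gene with Subread 1.5.0. The authors removed genes with low counts by filterByExpr, applied TMM scaling in edgeR, and divided by the summed non-overlapping exon length. TMM assumes that most genes do not change, so levels are relative to the bulk of the transcriptome. The strand setting of the counting is not given in the sources used here, and 0 value columns were left without a culture.

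From these values, log2(FPKM + 0.1) of all 11022 genes was fitted in limma 3.58.1 (R 4.3.3; lmFit, contrasts.fit, eBayes with trend), with 1 mean per group, all 12 cultures and 6 comparisons. The study's voom fit needs counts, which were not used here. Called means a Benjamini-Hochberg adjusted p under 0.05 and over 2-fold. Counts at an unadjusted p under 0.05 are given without the share of all genes, which was not computed. The 8 members, the gene lists, markers and motifs were chosen with earlier results of these data known. All 8 members were to be named, with the 5 genes most like their mean (mean FPKM of at least 1 in a group), 10 neighbours on each side, and at most 4 genes per list called after TCR stimulation, while list genes named for the inhibitors were chosen after their values were seen. The PI3Kdi result of the quiescence list is not reported here. The fit was tested on simulated data with known changes, all over 2-fold. That test does not show how well smaller changes, as in most members here, are found.

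Positions come from RefSeq and GENCODE M21 on GRCm38, with 10334 genes matched by Entrez gene. Depth came from the spacing of low FPKM values, of which 60.2% to 72.4% per culture lay within 0.15 of a whole read (30% would by chance), so whole reads were not recovered and read numbers are approximate, for counting error only. Python 3.11.15, NumPy 2.4.6, pandas 2.3.3 and Matplotlib 3.10.9 were used.

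Replicates are numbered 1 to 3 in every group and the cells came from 3 mice, but no source states that equal numbers are the same mouse. The residuals around group means of cultures with equal numbers had correlations, over 9899 genes, of 0.239 to 0.451 for PI3Kdi with TCR, 0.122 to 0.182 for MEKi with TCR, 0.137 to 0.149 for MEKi with PI3Kdi, 0.117 to 0.147 for MEKi with unstimulated, 0.00370 to 0.153 for TCR with unstimulated and -0.0615 to 0.114 for PI3Kdi with unstimulated. Every pair was above 0.1 in the first 4 of these. The main fit held no replicate block in any comparison, so its p-values take no account of pairing. The fit with replicate number as a block is given where it changes a result. Other alternatives were pseudocounts of 1 and 0.01, a mean FPKM filter at 1, the TPM scale, quantile normalisation, the compared groups alone, no trend, no fold threshold, limma treat at 2-fold, and leaving out each culture. Ranges of an adjusted p over the alternatives run cover 20 of them, without limma treat and the fit with no fold threshold.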

Additional observations from a re-analysis of the deposited data

How the results depend on the processing

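The number of Gimap genes called at 2-fold was most sensitive to the fold threshold. Without it, 6, 7, 5, 3, 8 and 6 members passed (TCR against unstimulated, PI3Kdi and MEKi against TCR, MEKi against PI3Kdi, PI3Kdi and MEKi against unstimulated). With limma treat at 2-fold, 1 passed in TCR against unstimulated and 0 in each inhibitor group against unstimulated. The TPM scale gave 5, 1, 1, 3 and 3 for TCR against unstimulated, both inhibitors against TCR, and PI3Kdi and MEKi against unstimulated. It added Gimap3 and Gimap8 in the first and Gimap7 in both inhibitor comparisons with TCR. Against unstimulated it added Gimap4 and Gimap9 for PI3Kdi and Gimap4 for MEKi. Quantile normalisation gave 4 for TCR and 3 for MEKi against unstimulated, adding Gimap3 and Gimap4 respectively. Of all genes, it called 921 higher and 1216 lower for TCR, and 725 higher and 760 lower for MEKi, against unstimulated. Leaving out 1 culture gave 3 in each fit of TCR against unstimulated, 0 in both inhibitor comparisons with TCR and in MEKi against PI3Kdi, 0 to 1 for PI3Kdi and 1 to 3 for MEKi against unstimulated. The replicate block changed no count at 2-fold, and beyond Gimap3 and Gimap9 in MEKi against PI3Kdi it changed no result. Log2 fold changes that reversed on the TPM scale were Gimap5 at -0.078 (TCR against unstimulated), Gimap7 at 0.070 (MEKi against PI3Kdi), Gimap1 at -0.022 (PI3Kdi against unstimulated), and Gimap5 at -0.12 and Gimap6 at -0.046 (MEKi against unstimulated). Quantile normalisation turned Gimap5 to -0.0055 in MEKi against unstimulated. Without single cultures, changes that crossed 0 ran from -0.11 to 0.023 (Gimap1) and -0.089 to 0.033 (Gimap6) in TCR against unstimulated, from -0.0053 to 0.050 (Gimap5) in MEKi against unstimulated, and from -0.039 to 0.10 (Gimap1) and -0.067 to 0.074 (Gimap7) in MEKi against PI3Kdi. The cause of these changes was not tested beyond the shift of all genes given above. Depth limited none of these genes to under 246 approximate reads, but 3 cultures per group limit the precision of small changes.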
